A study of Mus musculus with 12 samples.

Results

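The Hox genes are the genes whose symbol in the array table is Hoxa, Hoxb, Hoxc or Hoxd followed by a number, and 35 of the 17550 measured genes carried such a symbol. They were read by 219 of 221417 main probesets. A probeset is a set of short probes within 1 exon. The number in the symbol is the paralog group: 12 of the genes belonged to groups 1 to 4, 10 to groups 5 to 8, and 13 to groups 9 to 13. Hoxa13, Hoxc11, Hoxd8 and Hoxd12 were not analysed here. The study asked what the loss of KIS, a protein kinase encoded by Uhmk1, changed in the developing brain. It compared whole brains of newborn female mice, 6 wildtype (KIS +/+) and 6 KIS-ko (KIS -/-), as pairs of littermates from 6 litters. All animals carried the C57BL6/N background to which the KIS-ko line had been backcrossed. Each brain was dissected whole, frozen, powdered and measured on 1 exon array.

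Uhmk1, on chromosome 1, checked the labels. Its gene value, log2(signal + 16) averaged over all its main probesets, was at least 10.77 (median 10.87) in the wildtype brains and between 8.11 and 8.65 (median 8.45) in the KIS-ko brains. It was lower in KIS-ko in 6 of 6 litters, with a mean difference of -2.46 log2 units (SE 0.092, adjusted p = 2.4e-06 in limma), and no brain went against its label.

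Hox genes encode homeodomain transcription factors that give the segments of the hindbrain and the spinal cord their identity along the axis from head to tail. They lie in clusters, and the low paralog groups start in the hindbrain while the higher groups start further and further down the spinal cord. They are largely silent in forebrain and midbrain, so a sample of a whole brain holds their RNA mainly through its caudal end. In such bulk samples fewer cells of a type and less RNA per cell cannot be told apart. The labels and methods do not say where the cut between brain and spinal cord was placed in each animal.

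The positions of the table put the Hoxa genes on chromosome 6, the Hoxb genes on chromosome 11, the Hoxc genes on chromosome 15 and the Hoxd genes on chromosome 2. Of the 35 genes, 19 had a promoter in the RefSeq table of build GRCm38.p6, with 21 promoters in all. Each promoter runs from 250 bases before the start of transcription to 50 bases after it. The promoters of Hoxa5, Hoxa6 and Hoxb8 are shown because these genes varied most between the brains, together with Hoxb5, which is named only. The Hoxa5 promoter is chr6:52204538-52204837 on the minus strand, the Hoxa6 promoter is chr6:52208623-52208922 on the minus strand, and the Hoxb8 promoter is chr11:96281655-96281954 on the plus strand. Capitals mark AGGTCA, the half-site bound by retinoic acid receptors, TGATNNAT, a joint site of PBX and HOX proteins, and TTTATG, a site of the CDX factors, each read on both strands. None of these matches overlapped another one in the promoters shown.
Hoxa5: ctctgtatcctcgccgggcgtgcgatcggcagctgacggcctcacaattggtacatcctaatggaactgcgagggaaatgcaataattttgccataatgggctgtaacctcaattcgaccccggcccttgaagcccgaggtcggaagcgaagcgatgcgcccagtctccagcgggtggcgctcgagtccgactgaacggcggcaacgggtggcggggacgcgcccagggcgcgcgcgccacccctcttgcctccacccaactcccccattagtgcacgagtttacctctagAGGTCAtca
Hoxa6: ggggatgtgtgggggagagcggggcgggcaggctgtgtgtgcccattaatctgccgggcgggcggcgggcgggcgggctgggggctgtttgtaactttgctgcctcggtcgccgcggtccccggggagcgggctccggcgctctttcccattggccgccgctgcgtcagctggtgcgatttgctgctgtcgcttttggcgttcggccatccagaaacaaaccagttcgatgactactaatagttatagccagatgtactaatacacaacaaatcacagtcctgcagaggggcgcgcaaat
Hoxb8: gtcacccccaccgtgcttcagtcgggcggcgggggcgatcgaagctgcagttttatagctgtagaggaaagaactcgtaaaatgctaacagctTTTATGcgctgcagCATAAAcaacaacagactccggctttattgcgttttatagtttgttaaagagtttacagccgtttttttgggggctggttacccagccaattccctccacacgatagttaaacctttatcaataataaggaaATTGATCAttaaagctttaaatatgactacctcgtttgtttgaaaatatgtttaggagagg
The Hoxa5 promoter held 1 AGGTCA, beginning at position 42 after the start, and the Hoxa6 promoter held none of the 3 motifs. The Hoxb8 promoter held 2 TTTATG, the second read on the other strand, and 1 TGATNNAT. Over the 21 Hox promoters, AGGTCA stood in 6 (28.6%, against 16.3% of all 32851 promoters of this length), TGATNNAT in 4 (19.0% against 8.8%) and TTTATG in 5 (23.8% against 11.9%). These matches are letters in the sequence and not measured binding.

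The Hox genes were read at a low signal in these brains, and the highest values were those of some genes of groups 2 to 5. The 5222 intron control probesets of the same arrays had a median of 114 and a 95th percentile of 713 in mean signal, in the linear unit of the deposited table. Of the 219 Hox probesets, 137 (62.6%) lay above the control median, against 81.9% of all main probesets. Above the control 95th percentile lay 21 (9.6%), against 41.4% of all. The median over the probesets of a gene exceeded the control median in 24 of 35 Hox genes and the control 95th percentile in 0 of 35, while 15 genes had at least 1 probeset above the latter.

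By this median over probesets, Hoxb5 came first with a signal of 658. Hoxa5 followed with 487 and Hoxa4 with 479, and then came Hoxa2 with 410, Hoxb3 with 409 and Hoxd3 with 380, while Hoxb2 had 241. In groups 6 to 13 the highest medians were those of Hoxb6 (258), Hoxa7 (212), Hoxd11 (211), Hoxd13 (186) and Hoxb9 (172). Signals of different probesets depend on the affinity of their probes, so this order is a description. By group, the median probeset signal was 135 in group 1, 334 in group 2, 360.5 in group 3, 161 in group 4, 343 in group 5, 164 in group 6, 141 in group 7 and 128 in group 8. In groups 9 to 13 it lay between 65.9 and 155, close to the control median.

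**Figure D1:**
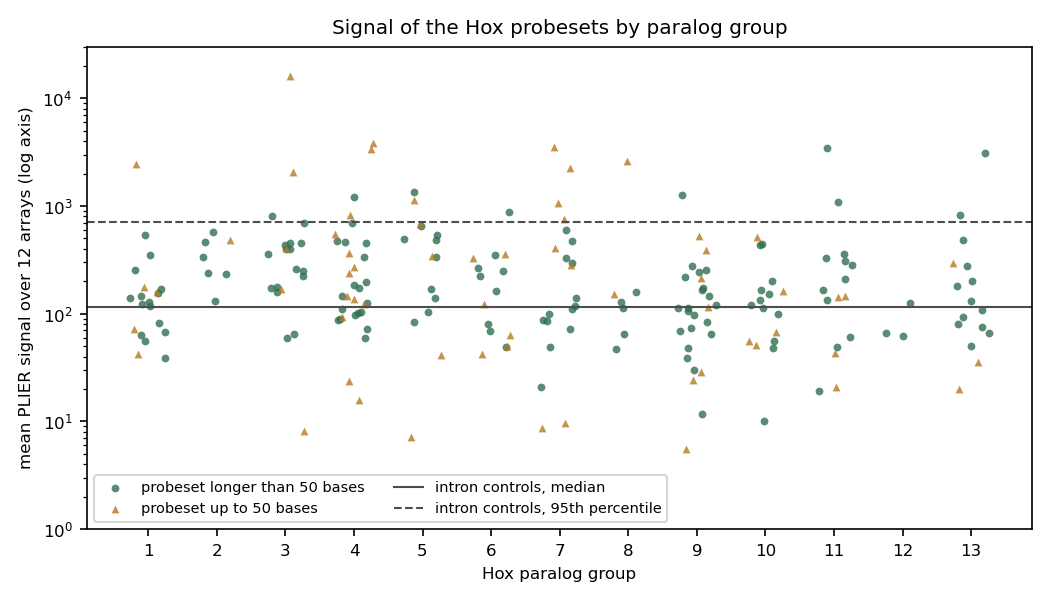
Mean PLIER signal over the 12 arrays of each of the 219 Hox probesets (log axis) by paralog group, with circles for probesets longer than 50 bases and triangles for shorter ones. The lines are the median (114) and the 95th percentile (713) of the intron controls. The 21 probesets above the upper line include 12 triangles, and most circles of groups 2 and 3 lie between the lines.

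Short probesets made up much of the bright end. Among the 21 Hox probesets above the control 95th percentile, 12 (57.1%) were at most 50 bases long, against 26.8% of the other 198 Hox probesets and 29.3% of all main probesets that bright. The bright Hox probesets varied less between the brains, with a median SD of 0.15 log2 units against 0.28 for the other Hox probesets. Over all main probesets this median was 0.19, and over those above the control 95th percentile it was 0.13. Hoxb8 shows the contrast within 1 gene: its 27-base probeset had a mean signal of 2596, and its other 3 probesets, of 150 to 661 bases, had 113 to 161. The table does not mark the 27-base probeset as matching 1 place only, as it does the other 3. Length alone did not part the Hox probesets, since those of up to 50 bases had a median signal of 160 and longer ones 149, both with a median SD of 0.28.

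Between the 12 brains Hoxb5, Hoxb8, Hoxa6 and Hoxa5 spread most of the Hox genes. The SD over the brains was 0.65 log2 units for Hoxb5, 0.54 for Hoxb8, 0.52 for Hoxa6 and 0.49 for Hoxa5, against a median of 0.12 over all genes. Their percentiles among all genes were 99.9, 99.9, 99.8 and 99.8. Among genes of like mean value (within 0.5 log2 units) the percentile was 99.9 for each of the 4. Hoxc5 followed with 0.39 (percentile 99.1), Hoxb2 with 0.33 (percentile 98.3), Hoxa2 with 0.23 (percentile 93.7), Hoxc4 with 0.22 (percentile 92.7) and Hoxa9 with 0.22 (percentile 92.3). The other 5 genes of groups 5 to 8 spread less, with an SD from 0.10 for Hoxa7 (percentile 39.2) to 0.16 for Hoxc6 (percentile 76.2). In all, 27 of 35 Hox genes had an SD above the median of all genes and 9 above the 90th percentile.

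**Figure D2:**
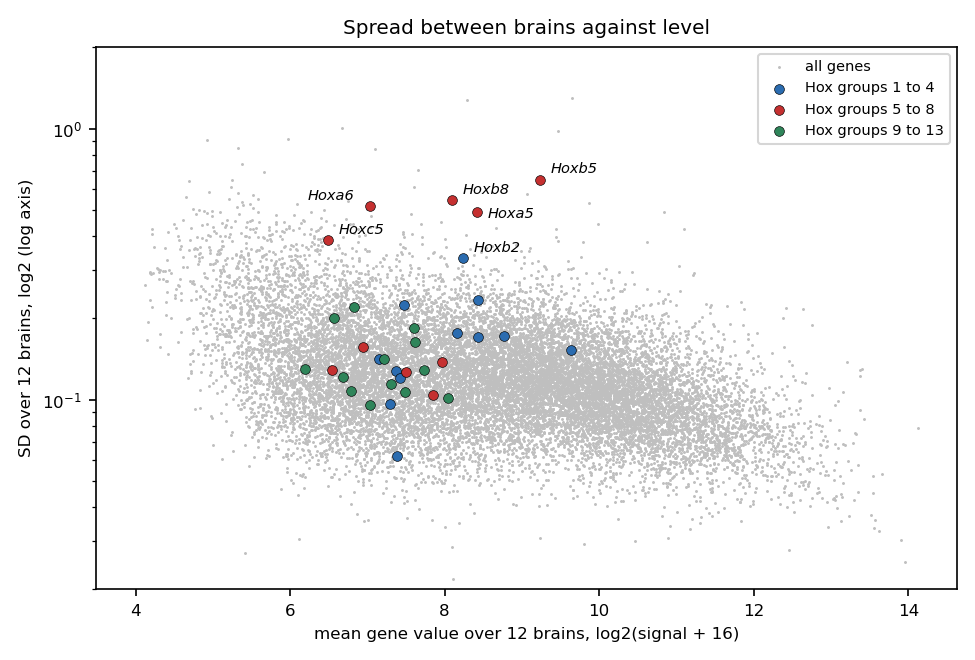
SD over the 12 brains (log axis) against mean gene value for every gene (grey) and for the Hox genes, coloured by paralog group. Hoxb5, Hoxb8, Hoxa6 and Hoxa5 lie between 0.49 and 0.65, at the upper edge of the genes of their level. The 3 genes with an SD under 0.02 are not drawn.

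The spread also differed along the axis when genes were averaged per brain. The mean of groups 1 to 4 ran from 7.77 to 8.19 with an SD of 0.11 over the brains, and that of groups 5 to 8 from 7.15 to 8.05 with an SD of 0.25. The mean of groups 9 to 13 ran from 7.07 to 7.32, with an SD of 0.068. In the 2 first blocks the lowest brain was KIS-ko of litter 6 and the highest was KIS-ko of litter 4, and in the last block these 2 brains lay inside the range at 7.19 and 7.11. With every array centred on its median, wildtype of litter 4 was highest for groups 1 to 4 in place of its KIS-ko littermate. Without the KIS-ko brain of litter 6, the 3 SDs were 0.097, 0.21 and 0.071. With every array centred on its median they were 0.098, 0.25 and 0.12, so that the mean of groups 5 to 8 spread most under this scaling as well, while the order of the first and the last block turned.

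Counted by probeset, the same 2 brains were most often at the ends in group 5. KIS-ko of litter 6 was the lowest of the 12 arrays for 9 of the 15 probesets of group 5 (60.0%), for 22 of 80 in groups 1 to 4 (27.5%), for 6 of 43 in groups 6 to 8 and for 5 of 81 in groups 9 to 13 (6.2%). Over all probesets it was the lowest for 12.8%. KIS-ko of litter 4 was the highest for 10 of the 15 probesets of group 5 (66.7%), for 23 of 80 in groups 1 to 4 (28.7%), for 12 of 43 in groups 6 to 8 (27.9%) and for 6 of 81 in groups 9 to 13 (7.4%), against 12.3% of all probesets. Probesets of a gene share its RNA and are not independent replicates.

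**Figure D3:**
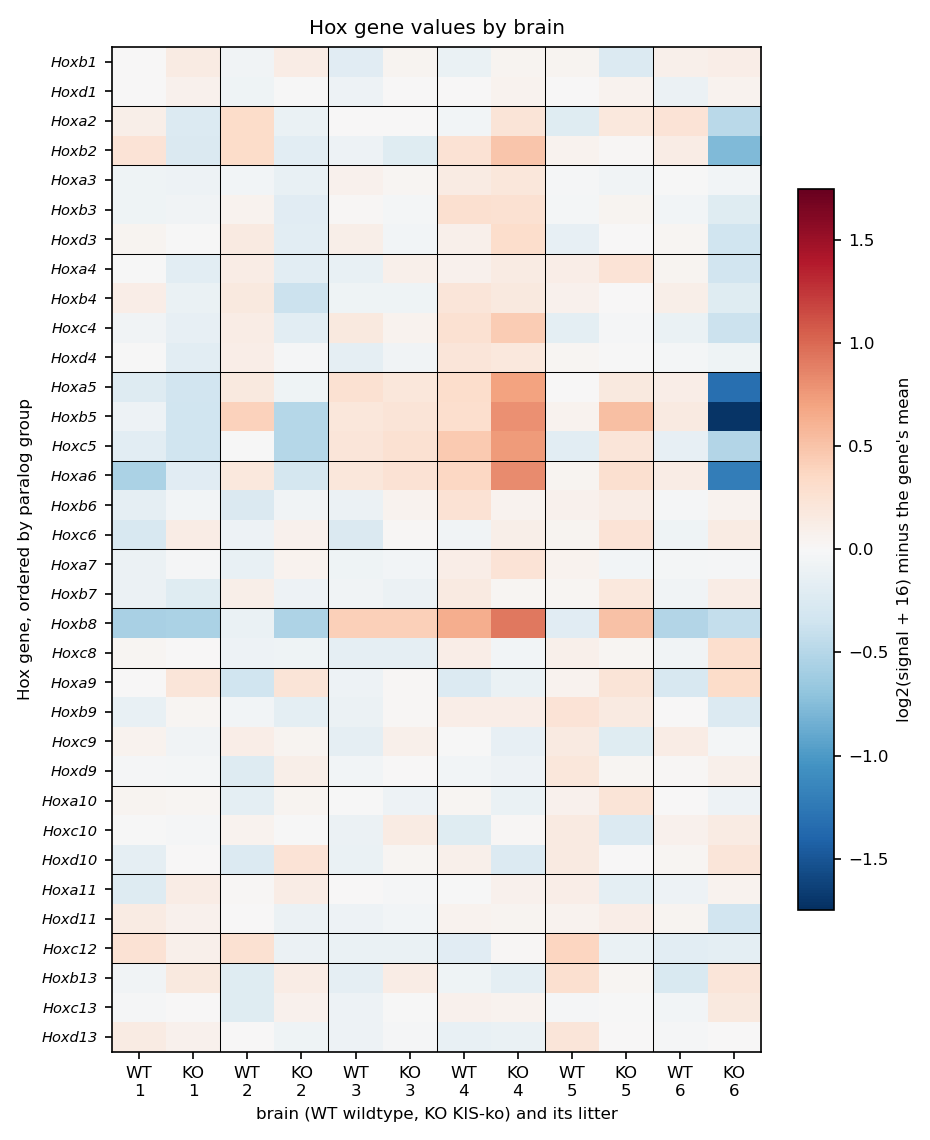
Gene value of 34 Hox genes in each brain minus the mean of the gene, in log2(signal + 16) units, with genes ordered by paralog group and brains by litter. KIS-ko of litter 6 is blue for Hoxa2, Hoxb2, Hoxa5, Hoxb5, Hoxc5 and Hoxa6, KIS-ko of litter 4 is red for the same genes, and most rows of groups 9 to 13 are paler.

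Group 1 acts first in the hindbrain, where Hoxb1 patterns a middle segment. Hoxb1 ran from 7.18 to 7.47 (median 7.35) in wildtype and from 7.13 to 7.51 (median 7.45) in KIS-ko. Hoxd1 ran from 7.28 to 7.40 (median 7.35) and from 7.38 to 7.46 (median 7.44), and its SD of 0.062 was among the smallest of all genes (percentile 4.7), while that of Hoxb1 was 0.13 (percentile 59.4). The genotypes overlapped for both genes, and their median probeset signals of 120 to 160 were close to that of the controls.

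Group 2 reaches furthest forward in the hindbrain, and its genes moved with the brain of litter 6. Hoxa2, which sets the fate of the second segment, ran from 8.21 to 8.74 (median 8.48) in wildtype and from 7.96 to 8.65 (median 8.37) in KIS-ko. Hoxb2, needed for facial motor neurons, ran from 8.15 to 8.56 (median 8.43) and from 7.47 to 8.73 (median 8.05). For both genes KIS-ko of litter 6 was the lowest brain, at 7.96 and 7.47. The genotypes overlapped for Hoxa2, while for Hoxb2 4 of 6 KIS-ko brains lay below the lowest wildtype brain and KIS-ko of litter 4 above the highest.

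Groups 3 and 4 act in the caudal hindbrain. Hoxb3 ran from 9.57 to 9.93 (median 9.63) in wildtype and from 9.42 to 9.91 (median 9.59) in KIS-ko, with both brains of litter 4 on top. Hoxd3 ran from 8.29 to 8.59 (median 8.49) and from 8.08 to 8.74 (median 8.40), and Hoxa3 from 7.22 to 7.43 (median 7.28) and from 7.16 to 7.49 (median 7.24). Hoxb3 and Hoxd3 were lowest in KIS-ko of litter 6, and Hoxa3 in KIS-ko of litter 2. Of group 4, Hoxa4 ran from 8.65 to 8.90 (median 8.83) in wildtype and from 8.43 to 9.01 (median 8.72) in KIS-ko, and Hoxb4 from 8.09 to 8.37 (median 8.27) and from 7.79 to 8.34 (median 8.06). Hoxc4 ran from 7.30 to 7.74 (median 7.51) and from 7.10 to 7.91 (median 7.40), and Hoxd4 from 7.27 to 7.63 (median 7.44) and from 7.25 to 7.61 (median 7.38). Hoxa4 and Hoxc4 were lowest in KIS-ko of litter 6, Hoxb4 in KIS-ko of litter 2 and Hoxd4 in KIS-ko of litter 1, and the genotypes overlapped in each.

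Group 5 starts at the border of the hindbrain and the spinal cord, and Hoxa5 and Hoxb5 were its brighter members. The gene values of Hoxb5 in litters 1 to 6 were 9.15, 9.64, 9.44, 9.53, 9.30 and 9.40 in wildtype and 8.89, 8.74, 9.47, 10.05, 9.76 and 7.52 in KIS-ko. The wildtype brains stayed close together, and the KIS-ko brains held both the highest and the lowest value, a 5.76-fold range on the log2(signal + 16) scale. All 5 probesets of Hoxb5, between positions 96164880 and 96167227 of chromosome 11, were lowest in KIS-ko of litter 6, and 4 were highest in KIS-ko of litter 4. The longest, of 686 bases, read 475 in the wildtype and 186 in the KIS-ko brain of litter 6, while the 54-base probeset read 1503 and 324. Without that brain the SD of Hoxb5 was 0.37.

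Hoxa5 read 8.19, 8.59, 8.68, 8.72, 8.42 and 8.53 in the wildtype brains of litters 1 to 6. In the KIS-ko brains it read 8.08, 8.34, 8.62, 9.12, 8.58 and 7.10. Its order of brains was much like that of Hoxb5, with the same brain lowest and the same brain highest, and its SD fell from 0.49 to 0.28 without KIS-ko of litter 6. The 3 probesets of 68 to 515 bases carried this: in litter 6 the 515-base probeset read 522 in wildtype and 98.5 in KIS-ko, and the 199-base probeset 564 and 79.3. Its brightest probeset, of 25 bases, did not: it read 924 and 908. Hoxc5 was dimmer and ran from 6.31 to 6.95 (median 6.42) in wildtype and from 5.97 to 7.23 (median 6.42) in KIS-ko, with KIS-ko of litter 6 again the lowest brain and KIS-ko of litter 4 the highest.

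Hoxa6, next to Hoxa5 in the cluster, followed it. It ran from 6.49 to 7.40 (median 7.19) in wildtype and from 5.83 to 7.86 (median 7.06) in KIS-ko, and its 207-base probeset read 187 in the wildtype brain of litter 6, 15.5 in the KIS-ko brain of that litter and 401 in KIS-ko of litter 4. Hoxb6 did not share the pattern, with 7.70 to 8.22 (median 7.90) in wildtype and 7.90 to 8.09 (median 8.02) in KIS-ko. The gene value of Hoxa7 ran from 7.71 to 7.96 (median 7.80) and from 7.80 to 8.09 (median 7.83), and shared only the highest brain, KIS-ko of litter 4. KIS-ko of litter 6 stood at 8.03 for Hoxb6 and at 7.83 for Hoxa7, inside the range of the other brains. Of the 14 Hoxa7 probesets, the 38-base one read 300 in wildtype and 176.5 in KIS-ko of litter 6, and 456.5 in KIS-ko of litter 4. The brightest, of 26 bases, read 3330, 3851 and 3102 in these brains.

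Hoxb8, a gene of the spinal cord, divided the brains in another way. It read 7.54, 7.98, 8.52, 8.73, 7.90 and 7.59 in the wildtype brains of litters 1 to 6, and 7.55, 7.57, 8.52, 9.02, 8.62 and 7.68 in the KIS-ko brains. Both brains of litters 3 and 4 and KIS-ko of litter 5 were high, and both brains of litters 1 and 6 and KIS-ko of litter 2 were low. The wildtype brain of litter 6 thus lay with the low brains for Hoxb8, at 7.59, but in the middle for Hoxb5, at 9.40. The 661-base probeset read 50.1 and 42.0 in wildtype and KIS-ko of litter 1, 199 and 177 in litter 3, and 184 and 280 in litter 4. In litter 6 it read 58.8 and 30.7, so that the values of litters 1 and 6 lay under the control median.

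**Figure D4:**
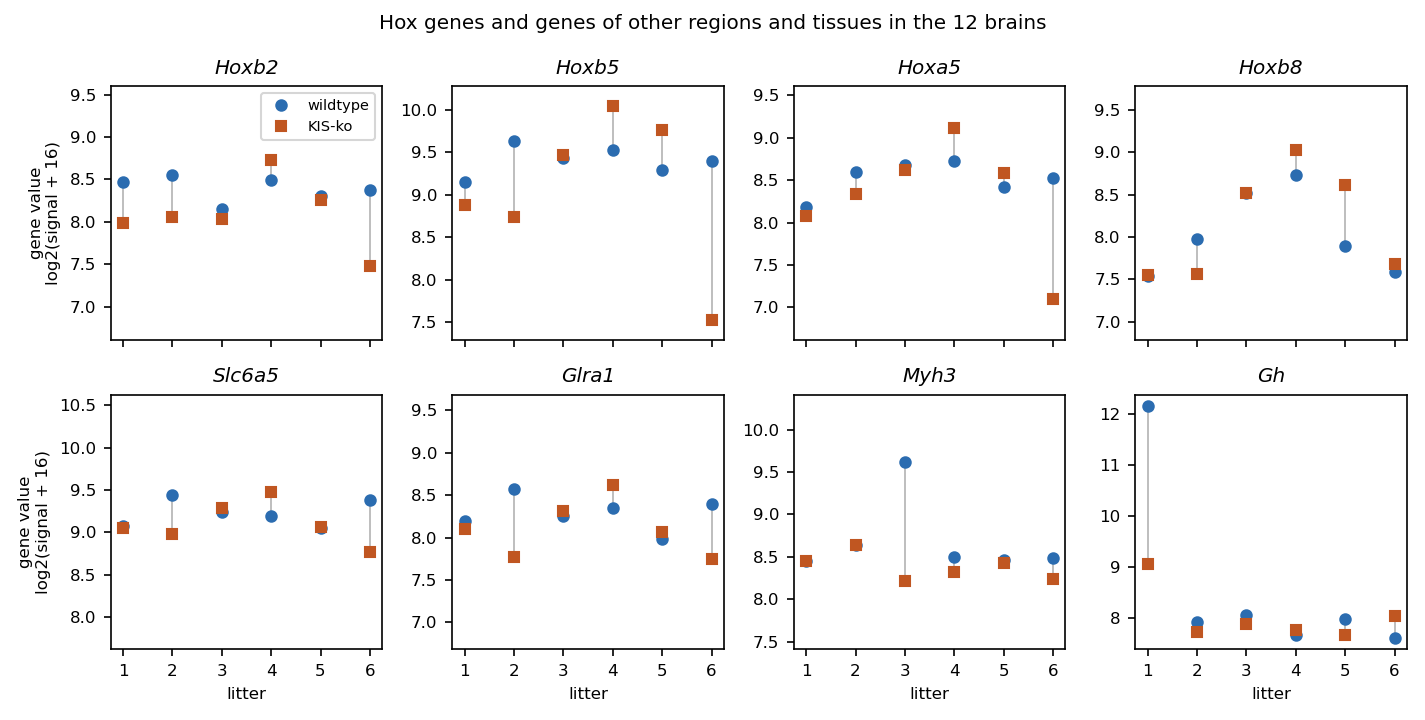
Gene values, log2(signal + 16), of Hoxb2, Hoxb5, Hoxa5, Hoxb8, Slc6a5, Glra1, Myh3 and Gh in the wildtype (circles) and KIS-ko (squares) brain of each litter, with littermates joined. Hoxb5 and Hoxa5 drop in KIS-ko of litter 6, Hoxb8 is high in both brains of litters 3 and 4, Myh3 is high in wildtype of litter 3 and Gh in wildtype of litter 1.

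Groups 9 to 13 mark the lower trunk, the limbs and the tail, and they were near the control level. Hoxb9 ran from 7.09 to 7.45 (median 7.19) in wildtype and from 6.98 to 7.36 (median 7.23) in KIS-ko. Hoxd11 ran from 7.64 to 7.87 (median 7.78) and from 7.40 to 7.84 (median 7.73), and Hoxd13 from 7.93 to 8.25 (median 8.04) and from 7.94 to 8.13 (median 8.04). Their SDs of 0.14, 0.13 and 0.10 stood at percentiles 68.5, 59.8 and 36.6 of all genes. The other members of these groups had SDs between 0.095 and 0.22.

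Correlations over the 12 arrays describe which members varied together. They were taken after the median of each array was subtracted, and the points share their RNA, litter and array. With Hoxb5, r was 0.95 for Hoxa5 and 0.93 for Hoxa6, which were the 2 highest values among all genes, and 0.88 for Hoxd3, 0.86 for Hoxb2 and 0.82 for Hoxa2. Without KIS-ko of litter 6 these values were 0.85, 0.87, 0.81, 0.66 and 0.69, and Hoxa5 and Hoxa6 ranked 8 and 4 among all genes. Hoxb8 went from 0.62 to 0.83 when that brain was left out, and Hoxc5 from 0.77 to 0.88, with rank 2. Hoxb1 was at -0.66, and in groups 9 to 13 only Hoxb9 (0.49), Hoxd11 (0.63) and Hoxc12 (0.052) had a value above 0. Without that brain Hoxd11 was at 0.18 and Hoxc12 at -0.13.

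Between the genotypes no Hox gene was called. Of all 17550 genes 2 were called (0.0114%), Uhmk1 and Fcgr3, an immunoglobulin receptor, with a difference of -0.52 (adjusted p = 0.0073 in limma). At an unadjusted limma p under 0.05 stood 4 of 35 Hox genes (11.4%), against 5.9% of all genes. Both directions held 2 of them (5.71%), against 4.01% of all genes lower and 1.9% higher in KIS-ko. The median difference was -0.026 log2 units over the Hox genes and -0.037 over all genes, and 19 Hox genes (54.3%) were lower in KIS-ko against 69.8% of all genes. This direction turned with the processing: with arrays centred on their medians the median difference was 0.030 over the Hox genes and 0.019 over all genes, with 13 Hox genes lower, and with quantile normalization it was 0.0073 over the Hox genes, with 16 lower. With probesets of a relative standard deviation above 0.4 left out it was 0.020, with 15 of 34 Hox genes lower, beside -0.036 over all genes.

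The 4 genes were Hoxc6, Hoxa9, Hoxb4 and Hoxb2. Hoxc6, which marks the spinal cord at the forelimbs, ran from 6.67 to 6.99 (median 6.86) in wildtype and from 6.96 to 7.18 (median 7.06) in KIS-ko, overlapping only at the edge. It was higher in KIS-ko in 6 of 6 litters by 0.24 (SE 0.051, limma adjusted p = 0.52). The exact two-sided sign-flip test gave p = 0.03125, the smallest that 6 litters allow. Its median probeset signal was 72, under the control median, and a 34-base probeset that read 12.5 to 46.3 in wildtype and 40.6 to 84.4 in KIS-ko differed most. With probesets at or below the control median left out, the difference was -0.046. Hoxa9, a gene of the lower trunk, ran from 6.47 to 6.89 (median 6.66) in wildtype and from 6.72 to 7.14 (median 7.04) in KIS-ko. It was higher in KIS-ko in 6 of 6 litters by 0.30 (SE 0.079, limma adjusted p = 0.71, exact sign-flip p = 0.03125). Its 241-base probeset, the only one above the control 95th percentile, gave a difference of -0.10.

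Hoxb2 differed by -0.30 (SE 0.13, limma adjusted p = 0.71, exact sign-flip p = 0.156). It was lower in KIS-ko in 5 of 6 litters, with -0.90 in litter 6 and values from -0.50 to 0.24 in the others. Hoxb4 differed by -0.20 (SE 0.073, limma adjusted p = 0.71, exact sign-flip p = 0.0625), with -0.54 in litter 2 and -0.31 in litter 6. Without litter 2 the difference of Hoxb4 was -0.13, with probesets at or below the control median left out it was -0.0017, and with the 95th percentile as the limit it was 0.064. That of Hoxb2 was -0.18 without litter 6. Hoxd1 was higher in KIS-ko in 6 of 6 litters, by 0.086 (SE 0.045, limma adjusted p = 0.71, exact sign-flip p = 0.03125). None of these differences held after adjustment over all genes.

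The differences within litters were widest for Hoxb5, Hoxa6 and Hoxa5, with an SD over the litters of 0.92, 0.68 and 0.64. That of Hoxb8 was 0.37, below Hoxa2 (0.43) and Hoxb2 (0.41). For Hoxb5 the difference, KIS-ko minus wildtype, was -0.26, -0.90, 0.030, 0.52, 0.47 and -1.88 in litters 1 to 6, with a mean of -0.34 (95% interval -0.94 to 0.26, limma adjusted p = 0.71). The litters thus went both ways, and in litter 6 the KIS-ko brain was 3.67-fold lower on the log2(signal + 16) scale. For Hoxa5 it was -0.11, -0.25, -0.063, 0.40, 0.16 and -1.43, with a mean of -0.21 (interval -0.64 to 0.21, limma adjusted p = 0.72). For Hoxb8 it was 0.012, -0.41, 0.0011, 0.29, 0.72 and 0.096, with a mean of 0.12 (interval -0.14 to 0.38, limma adjusted p = 0.74). Without litter 6 the mean for Hoxb5 was -0.030, and with another litter left out it ran from -0.51 to -0.22. Without litter 6 the mean for Hoxa5 was 0.028 and without litter 5 that for Hoxb8 was -0.0024, so that the sign rested on 1 litter for these 2 genes. The intervals leave room for a change of over 0.2 log2 units in either direction for Hoxa5 and Hoxb5.

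**Figure D5:**
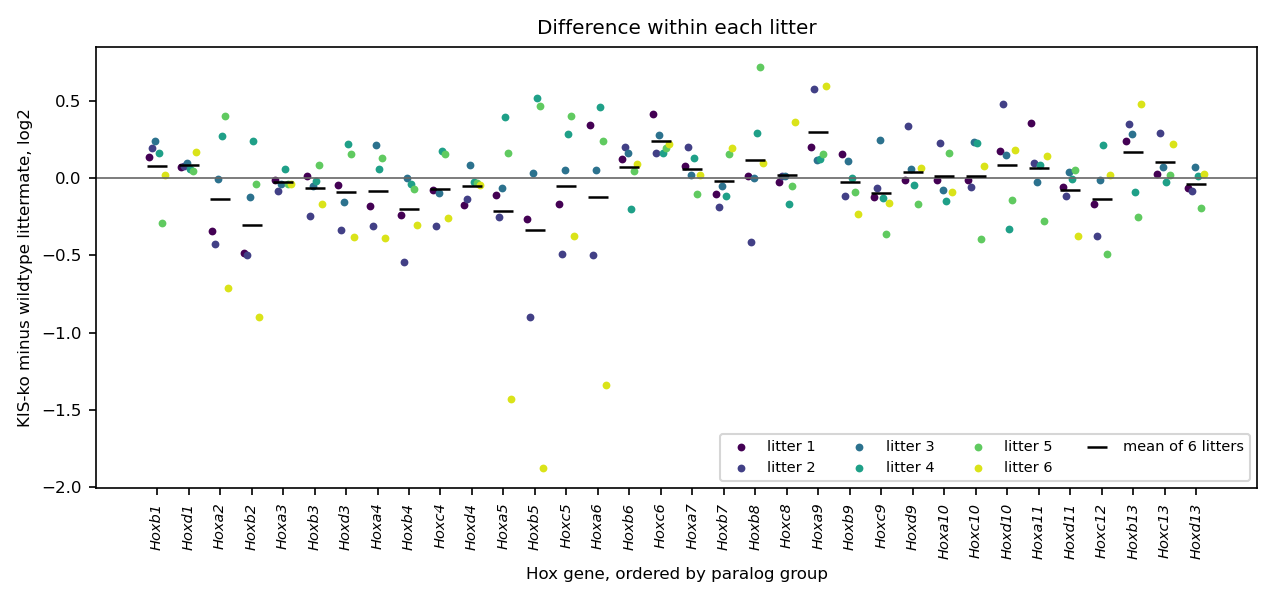
KIS-ko minus wildtype littermate in log2(signal + 16) for 34 Hox genes, with 1 point per litter and a bar for the mean of the 6 litters. Litter 6 lies at -1.88 for Hoxb5, -1.43 for Hoxa5 and -1.34 for Hoxa6, and most other points lie between -0.5 and 0.5.

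The differences of litter 6 were uneven along the Hoxa and Hoxb clusters. Along the Hoxb cluster the difference in litter 6 was 0.017 for Hoxb1, -0.90 for Hoxb2, -0.17 for Hoxb3, -0.31 for Hoxb4 and -1.88 for Hoxb5, and then 0.088 for Hoxb6, 0.19 for Hoxb7 and 0.096 for Hoxb8. Along the Hoxa cluster it was -0.71 for Hoxa2, -0.039 for Hoxa3, -0.39 for Hoxa4, -1.43 for Hoxa5, -1.34 for Hoxa6 and 0.021 for Hoxa7. By gene value, the members of groups 2 and 5 differed more than their neighbours of groups 3 and 4 in these 2 clusters. Probesets of 1 gene were uneven as well: in litter 6 the 72-base probeset of Hoxa4 read 737 in wildtype and 298 in KIS-ko. Its 65-base probeset read 574 and 216, its 39-base probeset 786 and 766, and its 32-base probeset 3270 and 3338. The 302-base probeset of Hoxc4 read 378 and 134, and its 52-base probeset 1060 and 1459. Hoxa3 and Hoxb4 were dim, with median probeset signals of 164 and 101. In the Hoxc cluster the values were smaller, with -0.26 for Hoxc4, -0.37 for Hoxc5 and 0.22 for Hoxc6, and Hoxc5 was lower still in litter 2 (-0.49). In the Hoxd cluster they were 0.17 for Hoxd1, -0.38 for Hoxd3 and -0.043 for Hoxd4. Genes of groups 8 to 13 differed in litter 6 as well and in both directions, with 0.60 for Hoxa9, 0.48 for Hoxb13, 0.36 for Hoxc8, -0.24 for Hoxb9 and -0.37 for Hoxd11. The step of Hoxa5 depended on how its probesets were summarized, with -2.50 for the median over probesets and -0.024 where the 25-base probeset alone was left. That of Hoxa6 lay between -1.99 and -0.66. For Hoxb8 the 27-base probeset read 1707 in the wildtype and 3132 in the KIS-ko brain of litter 6. Its other 3 probesets read 58.8 and 30.7, 67.9 and 49.1, and 110 and 170. The medians of whole arrays differed by -0.072, -0.13, -0.025, 0.098, -0.038 and -0.17 in litters 1 to 6, with the sign of Hoxb5 in litters 1, 2, 4 and 6 and the opposite sign in litters 3 and 5. With every array centred on its median, the difference of Hoxb5 in litter 6 was -1.71.

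Between litters no Hox gene was called either, as with all genes (0 of 17550, 0.0%, by the limma F test). At an unadjusted p under 0.05 stood 4 of 35 Hox genes (11.4%), against 10.6% of all genes. These were Hoxb8, Hoxc5, Hoxc4 and Hoxb3, with limma adjusted p of 0.17, 0.25, 0.30 and 0.38. The litter means of Hoxb8 were 7.54, 7.77, 8.52, 8.88, 8.26 and 7.64. Litters 3 and 4 were highest, and within litters 1, 3 and 6 the littermates differed by under 0.1. With a pseudocount of 64, or with moderation by trend and robust, Hoxb8 was called (limma adjusted p = 0.037 and 0.035). Under these settings 29 (0.165%) and 111 (0.632%) of all 17550 genes were called as well. With probesets at or below the control 95th percentile left out, Hoxa5 was called (limma adjusted p = 0.045), beside 2.21% of the 11436 genes left, and this call rests on its 25-base probeset alone.

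Genes of hindbrain and spinal cord neurons outside the Hox clusters gave a second reading of these regions. Slc6a5, the glycine transporter of inhibitory neurons of hindbrain and cord, was lowest in KIS-ko of litter 6 (8.77) and highest in KIS-ko of litter 4 (9.48), and so was Glra1, a glycine receptor subunit (7.75 and 8.62). The mean over the 12 genes of that list, all measured, ran from 8.16 in KIS-ko of litter 2 to 8.40 in its wildtype littermate, with KIS-ko of litter 6 at 8.18 and KIS-ko of litter 4, the second highest brain, at 8.37. The list mean differed by 0.043, -0.25, 0.0185, 0.13, -0.0076 and -0.16 in litters 1 to 6, with the sign of Hoxb5 in litters 2, 3, 4 and 6 and the opposite sign in litters 1 and 5. This mean was not centred on the medians of whole arrays, which differed by -0.13 in litter 2, 0.098 in litter 4 and -0.17 in litter 6. The 2 glycine genes were the only ones of the 12 lowest in KIS-ko of litter 6 (15.5% of all genes were). Lbx1, a factor of dorsal cord neurons, read 8.18 in that brain and was lowest in KIS-ko of litter 3 (7.67). Of this list 1 gene, Tph2, the enzyme of serotonin synthesis in the raphe, had an unadjusted limma p under 0.05 (difference -0.15, adjusted p = 0.71) and 0 were called.

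Markers of other regions and tissues gave their own values, and their part in the Hox values was not tested. The forebrain list (12 of 14 measured) ran from 10.73 to 10.94, with KIS-ko of litter 4 highest. Of its 12 genes 11 were higher in KIS-ko, against 5304 of all 17550 genes, and 0 had an unadjusted limma p under 0.05. The cerebellum list (6 of 7) ran from 8.40 to 8.62 and the midbrain list (6 of 6) from 8.82 to 9.08, both highest in the wildtype brain of litter 2. The brain list (7 of 7) ran from 12.24 to 12.45. The skeletal muscle list (8 of 8) was at 8.72 in the wildtype brain of litter 3 and between 7.67 and 7.89 in the others, and the pituitary list (5 of 5) was at 8.68 in the wildtype brain of litter 1, at 7.33 in its littermate and between 6.80 and 7.18 in the others. Cartilage and bone (7 of 7) ran from 7.26 to 7.50 and peripheral ganglia (4 of 5) from 7.24 to 7.55. The wildtype brain of litter 1, high in pituitary genes, read 9.15 for Hoxb5 and was lowest of all brains for Hoxb8 (7.54), and the wildtype brain of litter 3, high in muscle genes, read 9.44 and 8.52.

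No measured partner or regulator of Hox proteins was called between the genotypes. Of the cofactors of the MEIS, PBX and PKNOX families 8 of 9 were measured, 0 were called, and 1 had an unadjusted limma p under 0.05: Meis1, with a difference of -0.15 (adjusted p = 0.71). Of the upstream regulators, which include the CDX factors, the retinoic acid receptors and the enzymes that make and break down retinoic acid, 13 of 14 were measured and 0 were called, 0 also at an unadjusted p under 0.05. Of the Polycomb and Trithorax genes, which keep Hox clusters silent or active, 8 of 10 were measured, and both counts were 0 as well. The median differences of the 3 lists were -0.023, -0.0045 and -0.044, beside -0.037 over all genes. Between brains, the mean over the cofactors and that over the Polycomb and Trithorax genes were lowest in KIS-ko of litter 6 (10.35 and 9.998). Both were highest in KIS-ko of litter 4 (10.54 and 10.30). In litters 6 and 4 the cofactor mean differed by -0.14 and 0.11 within the litter, and the other mean by -0.15 and 0.25. The medians of whole arrays differed by -0.17 and 0.098 there, and the list means were not centred on them.

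The genes whose values were most like the mean of Hox groups 1 to 4 were found by Pearson's r over the 12 arrays among 17538 genes. Agt, which encodes angiotensinogen, came first (0.91), followed by Vamp1, a synaptic vesicle protein (0.90), Rab5b (0.90), Psmb3 (0.89), Josd1 (0.89), Gpld1 (0.88), Hoxc5 (0.88), Irs1 (0.88), Arhgef11 (0.88) and 1300014I06Rik (0.88). Without KIS-ko of litter 6 the 10 values lay between 0.85 and 0.90. The lowest were Slc44a3 (-0.89), Dph5 (-0.89), Tyms-ps (-0.89), Cmtm3 (-0.87) and S100a10 (-0.86). Hoxc5 was the only member outside groups 1 to 4 among the 10, while Tlx3, of the hindbrain list, had 0.80.

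The filter of the study's methods acted on the same spread. It rejects a probeset whose relative standard deviation exceeds 0.4 in 1 of the genotypes or both, and it removed 49 of 219 Hox probesets (22.37%) against 7.2% of all. All 5 probesets of Hoxb5 were among them, so that this gene dropped out, and so were 4 of the 5 of Hoxa5. The 25-base probeset that was left gave Hoxa5 a difference of 0.22 (SE 0.068, limma adjusted p = 0.68) in place of -0.21. For this reason all main probesets were kept in the values above.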

How the data were processed

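RNA of 12 newborn mouse brains, all female, was read on 12 Affymetrix Mouse Exon 1.0 ST arrays. The deposited table holds the linear intensity (PLIER signal) of each probeset, which the authors normalized by quantiles at the exon level with the Affymetrix Expression Console. The genome build of its positions is not given in the sources used here. No per-sample column was left unmapped. No 2 arrays were identical (r of log2 values 0.977 to 0.990), and 202 of the 219 Hox probesets match 1 place. Precision is limited by the number of arrays.

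Gene values averaged log2(signal + 16) over all main probesets, with no filter, and differences are on that scale. All 17550 genes were fitted with limma 3.58.1 in R 4.3.3, with genotype and litter as terms, moderated variances and Benjamini-Hochberg adjustment at 0.05. Litters were tested by the F test over their coefficients. The fit was tested on simulated data. For single genes an exact two-sided sign-flip permutation test over 6 litters was run. Summaries used Python 3.11.15, pandas 2.3.3 and scipy 1.17.1.

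The pairing comes from the labels, which give each brain its litter. Deviations of littermates from their genotype means had an r of 0.258, -0.049, 0.118, -0.097, 0.401 and -0.089 over all genes in litters 1 to 6. The groups come from the genotype labels. The members, the marker lists and the tests were chosen with earlier results of these data known. Singly named are the members of groups 1 to 5, the 5 members of groups 6 to 13 of highest median probeset signal, the 3 of largest SD and those with an unadjusted p under 0.05 between genotypes. Also named are the 10 genes of highest and the 5 of lowest r with the mean of groups 1 to 4, and genes of the marker lists. Of the Hox genes, 1 enters the totals but is not reported here singly. Genes named besides these were chosen after their values were seen.

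Alternatives were the relative standard deviation filter at 0.4, pseudocounts of 1 and 64, arrays centred or quantile-normalized again, dim probesets left out at the control median or the 95th percentile, probesets matching 1 place, medians over probesets, trend and robust moderation, no litter block, the methods' ratio measure and each litter left out. Leaving out KIS-ko of litter 6 for the SDs was chosen after the data were seen.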

Additional observations from a re-analysis of the deposited data

Results flagged for a closer look

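Among the 6 brains of a genotype, a brain was marked when its gap to the nearest other brain was large for the range of the 6. Chance marks about 5 in 100 groups, and 5 of 70 Hox groups were marked. Hoxb1 was at 7.13 in KIS-ko of litter 5, against 7.42 to 7.51 in the other KIS-ko brains. Hoxb3 was at 9.93 in wildtype of litter 4, against 9.57 to 9.70. Hoxa6 was at 6.49 in wildtype of litter 1, against 7.08 to 7.40. Hoxa10 was at 7.32 in wildtype of litter 2, against 7.48 to 7.56, and Hoxb13 at 7.89 in wildtype of litter 5, against 7.34 to 7.54. The mean of groups 9 to 13 was also at 7.32 in that last brain, against 7.07 to 7.16. Of the marker lists, forebrain stood at 10.91 in wildtype of litter 1 (10.73 to 10.76 in the others), skeletal muscle at 8.72 in wildtype of litter 3 (7.67 to 7.89) and pituitary at 8.68 in wildtype of litter 1 (6.80 to 7.09). The KIS-ko brain of litter 6 was not marked for Hoxb5, since the KIS-ko brains of litters 1 and 2 lay between it and the rest.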

How the results depend on the processing

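No Hox gene was called between genotypes under any of the 17 alternatives, against 2 to 6 with an unadjusted p under 0.05. That count was 4 in the main setting, 2 with probesets at or below the control 95th percentile left out, and between 2 and 6 with 1 litter left out (2 without litters 1, 2 or 6). Between litters 1 Hox gene was called with a pseudocount of 64 (Hoxb8, beside 0.165% of all genes), with trend and robust moderation (Hoxb8, beside 0.632%) and with the control 95th percentile filter (Hoxa5, from its 25-base probeset alone, beside 2.21%). The unadjusted count between litters rose from 4 to 7 with a pseudocount of 64, with centred arrays and with the control median filter, to 8 with quantile normalization, and ran from 2 (without litter 4) to 8 (without litter 6). The median genotype difference became 0.020 with the relative standard deviation filter, 0.030 with centred arrays and 0.0073 with quantile normalization. It became 0.040 with the 95th percentile filter (15 Hox genes left) and 0.055 with the methods' measure. The genotype difference of Hoxa5 became 0.22 with the relative standard deviation filter and with the 95th percentile filter, 0.028 without litter 6 (with -0.34 as the lowest value when 1 litter was left out) and 0.23 with the methods' measure. That of Hoxc6 became -0.046 with the control median filter, those of Hoxb4 and Hoxa9 0.064 and -0.10 with the 95th percentile filter, and that of Hoxb8 -0.0024 without litter 5 (up to 0.22 without another litter). The cause was not tested. Without the litter block 3 Hox genes had an unadjusted p under 0.05 and 0 an adjusted one, and the block changed no call. The SD of the mean of groups 5 to 8 ran from 0.13 to 0.32 over 16 alternatives, that of groups 1 to 4 from 0.080 to 0.15 and that of groups 9 to 13 from 0.049 to 0.12. In litter 6, Hoxb5 differed by -2.16 to -1.64 over 13 alternatives, Hoxa5 by -2.50 to -0.024 over 14, Hoxa6 by -1.99 to -0.66 over 13 and Hoxb8 by -0.16 to 0.87 over 14.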

Other observations

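Genes of tissues that adjoin the brain were high in single brains. Gh, the growth hormone of the anterior pituitary, read 12.15 in wildtype of litter 1, 9.06 in its KIS-ko littermate and 7.61 to 8.04 in the other 10 brains, and Cga, the common subunit of pituitary glycoprotein hormones, read 9.78, 6.78 and 5.97 to 6.69. Of the muscle genes, Myl1, a myosin light chain, read 9.69 in wildtype of litter 3 and 6.46 to 7.31 in the others, Acta1, skeletal actin, 10.06 and 8.60 to 8.96, and Myh3, the embryonic myosin heavy chain, 9.61 and 8.21 to 8.65. Of the lists, 3 of 5 pituitary genes were highest in wildtype of litter 1 and 6 of 8 muscle genes in wildtype of litter 3. Prl and Lhb, which encode prolactin and a luteinizing hormone subunit, and Myog and Myod1, factors of early muscle cells, lay inside the range of the other brains there, with Lhb at 8.09, Myog at 7.14 and Myod1 at 7.75. For Hoxb5 the brains high in pituitary and muscle genes read 9.15, the lowest value of the wildtype group, and 9.44. Ibsp, the bone sialoprotein, read 7.61 in KIS-ko of litter 2 and 6.73 to 7.02 in the others.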
